A study of Drosophila melanogaster with 3 samples.

Results

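The 38 genes described here encode proteins of the small (40S) subunit of the cytosolic ribosome. They were chosen by name, as the protein-coding genes whose symbol begins with RpS and a digit, out of 13945 protein-coding genes of the Drosophila melanogaster annotation. Their promoters and gene bodies were read for chromatin precipitated with the product of nautilus (nau), a MyoD-family factor with a basic helix-loop-helix domain. The material was whole embryos of mixed sex, collected at 4 to 24 h, from a stable transgenic line in which nau carries GFP at its C-terminus, and an antibody to GFP was used on chromatin sheared to 200 to 800 bp. All 3 biological replicates carry the same tagged protein and belong to 1 group, so places in the genome are compared and not conditions. Whole embryos mix many cell types, and which of them supplied the precipitated chromatin cannot be told apart in these data.

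Each replicate has a list of 30000 candidate regions sorted by the authors' signal value, which is their own measure of enrichment and serves only to rank regions within a list. A further list of 30000 regions was made from the pooled replicates. Its strongest 12.6% form the list that passed the authors' threshold on the irreproducible discovery rate (IDR), a measure of agreement between replicates. A summit is the position within a region that the authors gave as its peak. A region is called strong here when it is among the strongest 12.6% of its replicate's list, as many regions as the IDR list holds. Read depth is unknown, and intervals given for shares are 95% Wilson intervals that cover counting error only.

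The small subunit binds messenger RNA and reads its codons. Its head and its body with the platform move against each other during translation, and the proteins of each are encoded by genes scattered over the genome that are transcribed in nearly all cells. In Drosophila, most ribosomal protein genes start within a run of pyrimidines called the TCT initiator, which takes the place of the common initiator element, and many carry the DNA replication-related element (DRE), the sequence TATCGATA bound by the factor DREF. MyoD-family factors bind E-boxes, CANNTG, with CAGCTG among their preferred forms.

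The promoters of 6 of the 12 members with the strongest IDR regions are printed first, because the summits lie within them. Each is 200 bases of the RefSeq Release 6 genome (dm6), read 5′ to 3′ on the gene's strand, from 170 bases before an annotated start to 29 after it, so that base 171 is the start. Capitals mark CTTT at the start, which stands for the TCT initiator, CAGCTG and the DRE. The windows are chr3R:25247443-25247642 (minus strand) for RpS27 (FBgn0039300), chrX:19597870-19598069 (plus) for RpS10b (FBgn0285947), chr3L:13041631-13041830 (plus) for RpS4 (FBgn0011284), chr3R:11216258-11216457 (minus) for RpS25 (FBgn0086472), chrX:9554453-9554652 (plus) for RpS28b (FBgn0030136) and chrX:16637724-16637923 (plus) for RpS19a (FBgn0010412). The IDR summit is base 131 of the RpS27 window, 141 of RpS10b, 186 of RpS4, 150 of RpS25, 131 of RpS28b and 165 of RpS19a. RpS27 and RpS10b have a further annotated start upstream of base 171, to which their summits are nearer.
RpS27: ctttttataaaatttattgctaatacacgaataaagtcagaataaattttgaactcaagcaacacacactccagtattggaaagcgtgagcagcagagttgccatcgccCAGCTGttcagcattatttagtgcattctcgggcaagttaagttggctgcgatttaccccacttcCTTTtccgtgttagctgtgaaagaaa
RpS10b: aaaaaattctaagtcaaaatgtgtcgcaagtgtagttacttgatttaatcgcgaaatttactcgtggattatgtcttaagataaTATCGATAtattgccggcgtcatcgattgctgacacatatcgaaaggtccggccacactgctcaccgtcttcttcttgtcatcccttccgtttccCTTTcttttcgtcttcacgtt
RpS4: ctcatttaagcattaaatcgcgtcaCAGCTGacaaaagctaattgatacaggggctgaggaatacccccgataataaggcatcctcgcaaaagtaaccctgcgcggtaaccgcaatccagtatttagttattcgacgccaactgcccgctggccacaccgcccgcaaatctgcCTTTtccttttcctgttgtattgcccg
RpS25: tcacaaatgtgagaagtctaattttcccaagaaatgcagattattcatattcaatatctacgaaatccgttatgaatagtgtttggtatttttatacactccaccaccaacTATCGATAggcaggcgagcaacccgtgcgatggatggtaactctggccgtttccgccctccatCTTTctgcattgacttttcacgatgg
RpS28b: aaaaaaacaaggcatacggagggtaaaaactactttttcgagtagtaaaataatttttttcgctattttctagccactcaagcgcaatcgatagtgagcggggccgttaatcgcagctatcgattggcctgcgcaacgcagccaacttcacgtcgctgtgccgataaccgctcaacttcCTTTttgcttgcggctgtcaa
RpS19a: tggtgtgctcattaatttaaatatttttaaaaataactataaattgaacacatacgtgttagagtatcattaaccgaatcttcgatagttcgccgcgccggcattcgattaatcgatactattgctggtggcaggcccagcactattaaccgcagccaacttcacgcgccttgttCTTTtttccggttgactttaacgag
Where a gene has several starts near its summit, the window was set on one with CTTT, so its presence in these windows follows in part from that choice. All 6 hold CTTT, RpS10b and RpS25 hold the DRE upstream of it, and CAGCTG is found in the windows of RpS27 and RpS4.

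Of the 38 genes, 24 (63.2%, interval 47.3 to 76.6) had an IDR summit inside the gene or in the 2 kb upstream of it (the gene window), against 17.9% of all protein-coding genes. At the starts themselves, 23 members (60.5%, 44.7 to 74.4) had an IDR summit within 500 bp of a transcription start site (TSS) of their own, against 10.6% of all genes. Members are short genes, with a median length of 1322 bp against 2166 bp for all, so their gene windows were the shorter ones. In the longer pooled list, 27 members (71.1%) had a region in this window, against 40.7% of all genes. No test was run on these shares, because the genes were named with results of these data known.

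The replicates each placed strong regions at most of these starts. A strong summit lay within 500 bp of an own TSS for 24 members in replicate 1, 25 in replicate 2 and 23 in replicate 3, a mean of 63.2% ± 2.63 (SD, n = 3). Over all protein-coding genes the share was 11.4% ± 0.0745 (SD, n = 3), and no replicate's share of the members came near it. Strong summits in the gene window in all 3 replicates were found for 22 members (57.9%), against 13.3% of all genes, and strong summits within 500 bp of an own TSS in all 3 for 20 members (52.6%), against 6.83%. A further 4 members had such a strong start in 2 replicates (RpS14b, RpS13, RpS30 and RpS18), 4 in 1 replicate (RpS9, RpS29, RpS3 and RpS6), and 10 in none.

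**Figure D1:**
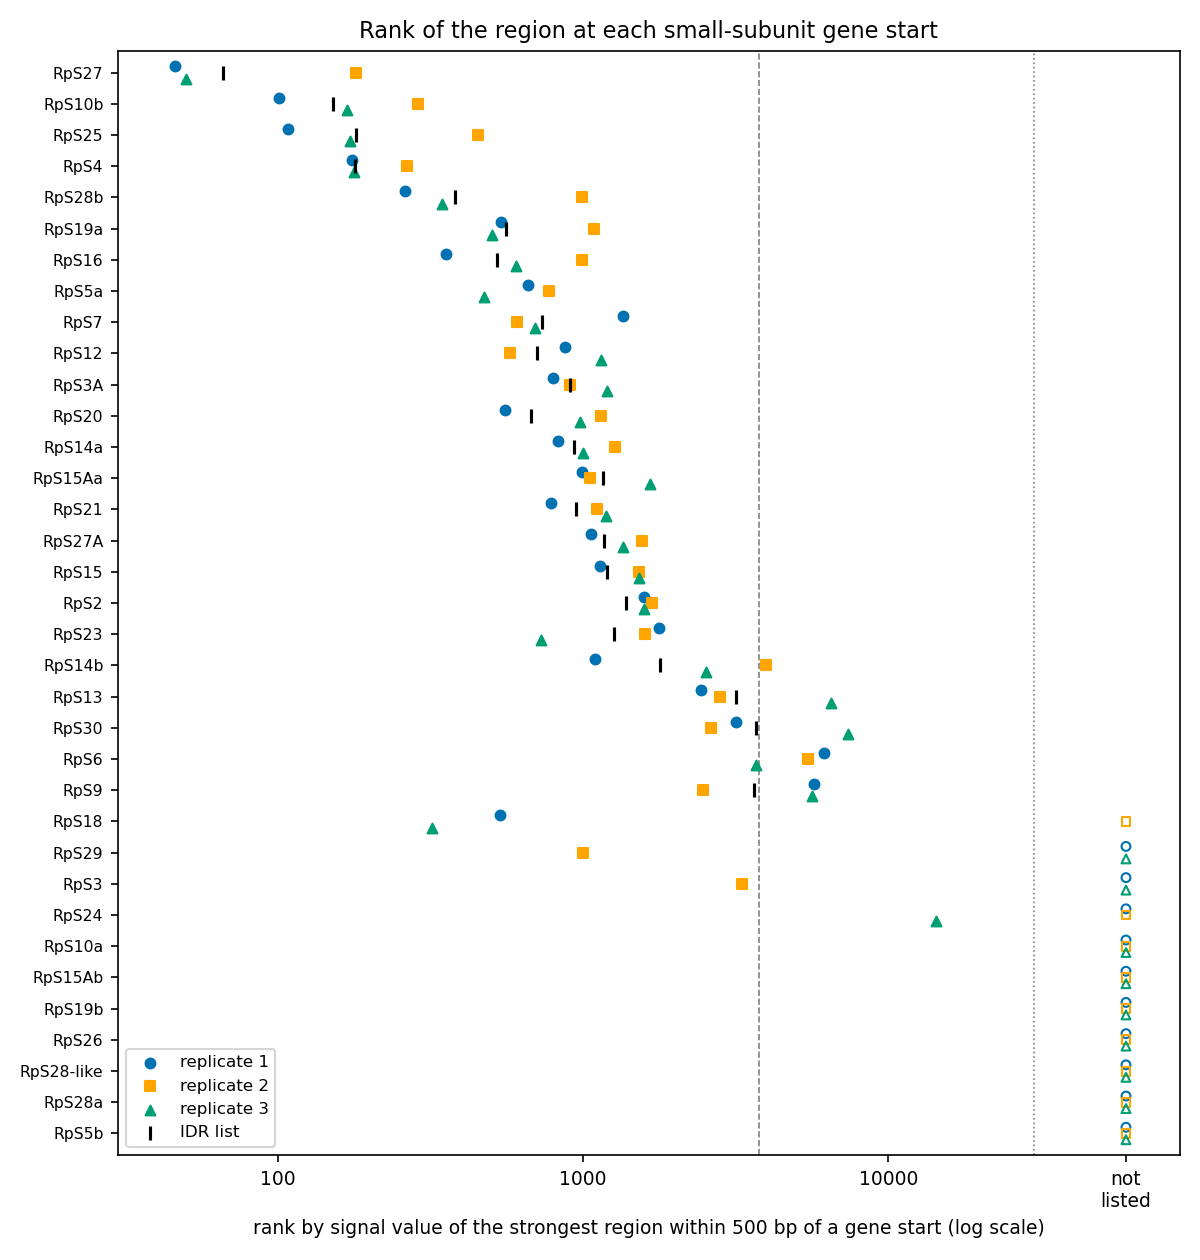
Rank by signal value, on a log scale, of the strongest region within 500 bp of a start of each of 35 members, in each replicate's own list (points) and in the IDR list (bars); the dashed line is the limit of strong regions, the dotted line the end of the lists at 30000, and open points mark no region. The points of the 19 members plotted that were strong in all 3 replicates lie left of the dashed line, with RpS27 first in each replicate, and 7 members have open points alone.

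Among the members with an IDR summit, the median rank of the strongest was 931, from 66 to 3676, and 4 of them lay in the first 200 regions. Of the 24, 21 lay in the stronger part of the IDR list, cut at its middle. The shares of all genes with an IDR summit in the first 200 and in that part are not given here. These counts therefore describe the members alone. The median rank of the members' matched regions, those with a summit within 100 bp, was 826, 1112 and 998 in replicates 1, 2 and 3 (979 ± 144, SD, n = 3). For comparison, all protein-coding genes with an IDR summit had a median rank of 1396, which also lies in the stronger part of the list. Of the 24 members, 23 were matched in all 3 replicates.

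RpS27, which encodes a zinc-binding protein of the platform, held the strongest region of the set. It ranked 46 in replicate 1, 181 in replicate 2 and 50 in replicate 3 (92.3 ± 76.8, SD, n = 3), with signal values of 396, 240 and 439. It led the members in each replicate, although replicate 2 placed it lower than the other replicates did. Its IDR summit lay 2 bp downstream of a TSS in the 5′ UTR, and the start of Nup37, a nuclear pore gene on the opposite strand, was 146 bp away.

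Head proteins contributed RpS10b and RpS25. RpS10b, whose protein sits near the entry of the messenger RNA channel, ranked 101, 287 and 168 in replicates 1, 2 and 3 (signal values 309, 202 and 304), and its summits in the replicates lay within 5 bp of each other. RpS25, known for its part in translation from internal ribosome entry sites, ranked 108, 452 and 173 (signal values 305, 167 and 300). Both IDR summits lay 21 bp upstream of the start, and in both genes replicate 2 gave the lowest placing. RpS4, a protein of the body, ranked 175, 266 and 178 (signal values 260, 210 and 299), with its IDR summit 15 bp inside the transcript.

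The next strongest members were mostly head proteins as well. RpS28b, at the exit side of the messenger RNA channel, ranked 261, 991 and 345 at its start. RpS16, whose protein reaches toward the transfer RNA in the peptidyl site, ranked 357, 995 and 602. RpS19a, the fly counterpart of the human gene most often mutated in Diamond-Blackfan anaemia, ranked 540, 1082 and 504. RpS20, a head protein near the channel entry, ranked 554, 1142 and 978, with its strongest IDR summit 163 bp upstream of the start and a weaker one, rank 2388, 36 bp downstream. For these 4 genes, as for the 4 strongest, replicate 2 ranked the region lower than replicates 1 and 3 did.

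That order did not hold further down. RpS12, a protein of the beak of the head with a known role in cell competition in Drosophila, ranked 875, 577 and 1141 in replicates 1, 2 and 3, and RpS7, a protein of the body, ranked 1354, 606 and 697. Replicate 2 gave these genes their highest placing. RpS3A, of the body and platform group and the single member on chromosome 4, ranked 799, 906 and 1201. RpS14a, a platform protein, ranked 826, 1269 and 998. The ranges of these genes over the replicates overlap, so their order from IDR rank 676 (RpS20) to 931 (RpS14a) is within the spread between replicates. Across the 22 distinct strongest summits matched in all 3 replicates, log2 signal values correlated with Pearson's r of 0.866 (replicates 1 and 2), 0.926 (1 and 3) and 0.858 (2 and 3). Spearman's rho was 0.842, 0.792 and 0.752. These summits passed the IDR threshold, which measures agreement between the same replicates, so part of the agreement follows from their choice. The points are summits that share each replicate's library and are given as a description.

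A middle group lay between IDR ranks 945 and 1650. It included RpS21 (945), RpS15Aa (1164), RpS27A (1172), RpS15 (1198), RpS23 (1262), RpS2 (1382) and RpS19b (1650). RpS27A encodes a fusion of ubiquitin with a head protein, RpS23 and RpS15 encode proteins at the decoding site, and RpS2 encodes a body protein at the channel entry. RpS2 was the steadiest of them, at 1585, 1678 and 1583 in the 3 replicates. RpS23 varied more, at 1772, 1597 and 726, with replicate 3 the highest.

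The weakest IDR summits were those of RpS13, RpS9 and RpS30, at IDR ranks 3178, 3639 and 3676. RpS13, a body protein at a bridge to the large subunit, ranked 2432, 2810 and 6464 at its start in replicates 1, 2 and 3. RpS9, a body protein near the channel entry, ranked 5715, 2463 and 5605, so that its region was strong in replicate 2 alone. RpS30, made as a fusion with a ubiquitin-like protein, ranked 3179, 2634 and 7347. Replicate 3 listed the starts of RpS13 and RpS30 below its strong regions. The summit of RpS13 lay 143 bp downstream of the nearest start, in an intron.

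Summits sat close to the starts. Taking for each of the 23 members the strongest IDR summit within 500 bp, 11 lay upstream and 12 at or downstream of the TSS, with a median of 2 bp downstream and a range from 163 bp upstream (-163) to 143 bp downstream. Weaker second summits lay farther away, at -223 bp for RpS25 (rank 839) and 216 bp downstream for RpS4 (rank 1748). That of RpS28b lay beyond the 500 bp, at -748 bp (rank 754). Within 50 bp of the TSS lay 18 of the 23 (78.3%), against 17.9% of the 1477 genes of all kinds with a summit within 500 bp, and within 100 bp lay 21 (91.3%), against 32.0%. The median distance, regardless of side, was 24 bp for the members, 29 bp for large-subunit genes and 155 bp for all genes. Over all 24 strongest summits in the gene window, 11 were in a 5′ UTR, 10 upstream of the gene, 2 in an intron and 1 in another exon, that of RpS15. Between replicates the matched summits of a member spread over a median of 36 bp, from 5 to 129 bp, which is of the same order as the distances themselves.

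**Figure D2:**
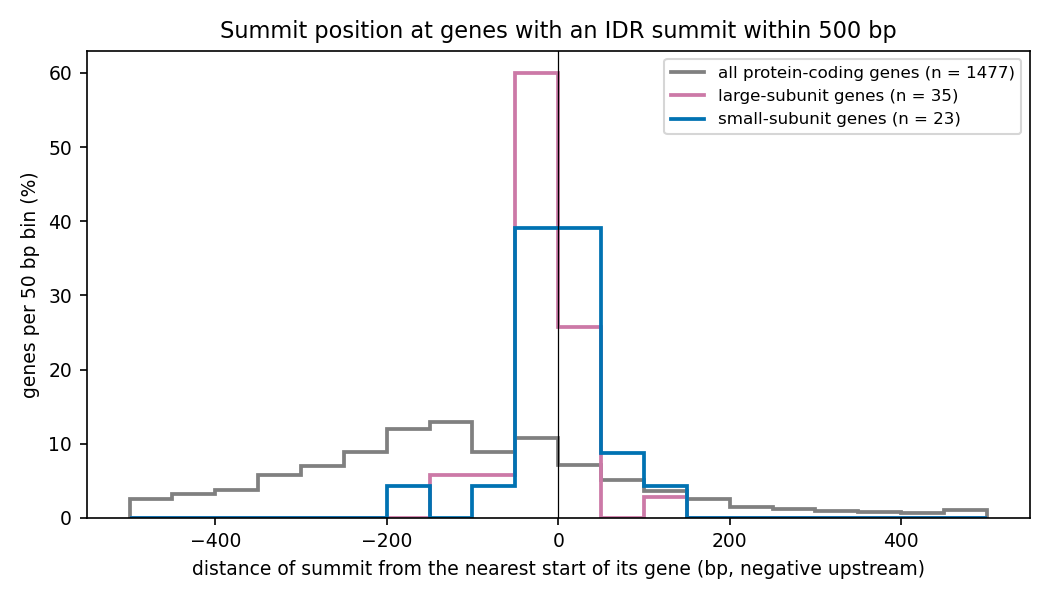
Distance of the nearest own start to the strongest IDR summit within 500 bp, in 50 bp bins, as a percentage of genes; negative values are upstream. The 23 small-subunit genes (blue) and 35 large-subunit genes (pink) gather around 0, whereas the 1477 genes of all kinds (grey) spread over the upstream side, with a median absolute distance of 155 bp.

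Neighbouring genes share some of these starts. Of the 23 members, 13 (56.5%) had a TSS of the opposite strand within 1 kb of the summit, as did 62.9% of large-subunit genes and 39.4% of all genes with a summit within 500 bp. The strongest summit of 3 members lay nearer the TSS of another protein-coding gene, RpS14b and RpS19b among them. That in the gene window of RpS14b was the summit 24 bp upstream of RpS14a, its neighbour. That of RpS19b was 888 bp upstream and 506 bp from CG5854. RpS27A has the same annotated start position as Ip259, 14 bp from its summit, and precipitation at the site cannot be assigned to either gene.

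Members of gene pairs differed widely in these lists. Of the 13 genes with a paired symbol, 6 had an IDR summit within 500 bp, and of the 25 others, 17. The second members RpS5b, RpS10a and RpS19b are known in Drosophila as copies used mainly in the germline. The starts of RpS10a, RpS14a, RpS14b, RpS5a and RpS5b are printed, on the same terms as above, because the pairs compare a listed with an unlisted start, or 2 listed ones. The windows are chr3R:27652590-27652789 (plus) for RpS10a, chrX:7933572-7933771 (plus) for RpS14a, chrX:7934728-7934927 (plus) for RpS14b, chrX:17148235-17148434 (minus) for RpS5a and chr3R:14901534-14901733 (minus) for RpS5b.
RpS10a: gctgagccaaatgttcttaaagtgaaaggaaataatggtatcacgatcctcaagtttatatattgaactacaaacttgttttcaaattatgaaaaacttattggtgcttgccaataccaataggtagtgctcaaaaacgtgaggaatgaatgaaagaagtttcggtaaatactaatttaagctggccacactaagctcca
RpS14a: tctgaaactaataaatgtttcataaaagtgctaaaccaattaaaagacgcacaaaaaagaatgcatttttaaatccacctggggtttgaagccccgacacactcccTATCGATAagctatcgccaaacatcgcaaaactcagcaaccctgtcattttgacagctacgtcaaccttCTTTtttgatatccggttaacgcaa
RpS14b: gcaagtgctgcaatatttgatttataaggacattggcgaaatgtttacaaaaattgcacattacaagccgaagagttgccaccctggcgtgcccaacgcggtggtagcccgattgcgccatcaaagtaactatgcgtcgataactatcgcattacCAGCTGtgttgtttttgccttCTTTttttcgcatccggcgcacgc
RpS5a: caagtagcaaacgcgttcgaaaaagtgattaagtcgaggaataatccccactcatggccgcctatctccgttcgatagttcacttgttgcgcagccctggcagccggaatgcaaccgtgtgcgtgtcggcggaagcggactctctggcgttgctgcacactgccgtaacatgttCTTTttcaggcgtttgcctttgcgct
RpS5b: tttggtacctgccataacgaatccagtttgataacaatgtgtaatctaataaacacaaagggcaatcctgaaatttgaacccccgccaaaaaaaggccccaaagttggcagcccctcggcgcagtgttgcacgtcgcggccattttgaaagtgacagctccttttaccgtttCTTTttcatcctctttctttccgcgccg
RpS10a holds neither CTTT at its start nor the other marked words, unlike RpS10b. RpS5a and RpS5b both hold CTTT at the start, and the longest run of bases that RpS14a and RpS14b share in these windows is 11 bases.

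No list held a region within 500 bp of a start of RpS10a, RpS5b, RpS19b, RpS15Ab, RpS28a or RpS28-like, whereas the partners RpS10b, RpS5a, RpS19a, RpS15Aa and RpS28b had strong regions in all 3 replicates. RpS15Aa, which encodes a body protein, ranked 992, 1052 and 1659 in replicates 1, 2 and 3. For RpS19b the summit in its gene window lay 888 bp upstream and ranked 2917, 2243 and 1150. The tandem genes RpS14a and RpS14b both had summits, 24 and 36 bp upstream of their starts. At RpS14b the region ranked 1094, 3980 and 2527, below RpS14a in each replicate. Leaving out these 6 members without a region at a start, 23 of 32 had an IDR summit within 500 bp. That choice was made after their values were seen and can only raise the share. RpS26, also without a region at its start, was kept.

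**Figure D3:**
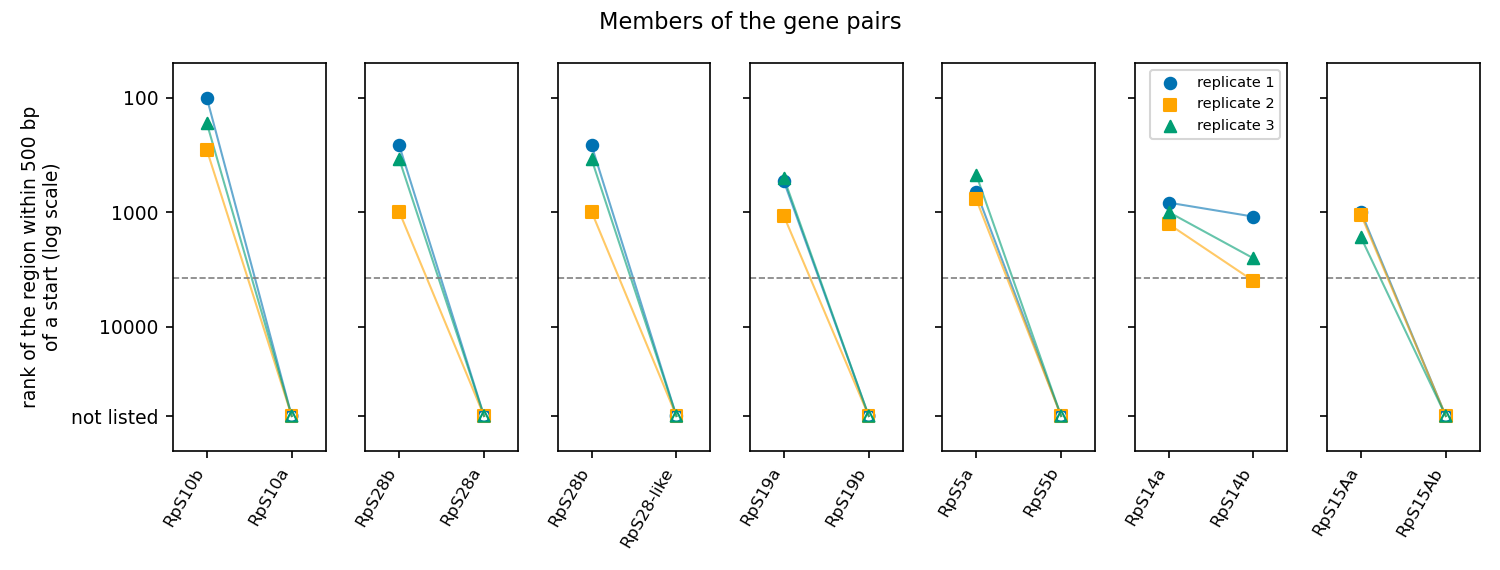
Rank, on a log scale with the strongest at the top, of the region within 500 bp of a start for both members of each gene pair in the 3 replicates, joined by lines; the dashed line is the limit of strong regions and open points mark no region within 500 bp. The left member is listed in each replicate in all panels, and the right member is listed for RpS14b alone.

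The 14 members without an IDR summit fall into several kinds. RpS5a, a head protein near the transfer RNA exit site, was strong in all 3 replicates, ranking 661, 775 and 472 with summits 92, 27 and 28 bp upstream (-92, -27 and -28), yet the pooled list held no region in its window. RpS18, a head protein, ranked 534 in replicate 1 and 321 in replicate 3 and was not listed in replicate 2 or in the pooled list. RpS29, a small zinc-binding head protein, was listed in replicate 2 alone, at 997. RpS3, a head protein at the channel entry, had a region at its start in replicate 2 alone, at 3322, and its best region in the gene window ranked 1168 there and 8376 in replicate 3. Each of these absences from the pooled list occurs beside a strong region in at least 1 replicate.

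Other members were listed lower. RpS6, the body protein phosphorylated by S6 kinase, ranked 6173, 5458 and 3688 in replicates 1, 2 and 3 and 4923 in the pooled list. RpS26, a platform protein at the messenger RNA exit, had no region at its start and ranked 7681, 3986 and 8878 within its gene window. RpS24 was listed at its start in replicate 3 alone, at 14269. RpS5b had a region in its gene window at 21786 in replicate 3. RpS10a, RpS15Ab, RpS28a and RpS28-like had no region in the gene window in any list. Of the ranks in this group, that of RpS6 in replicate 3 alone was within the strong regions.

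By place in the subunit, listed starts were found among genes of the head and among those of the body and platform. Of 19 head proteins, 11 had an IDR summit in the gene window and 10 within 500 bp of the start, with a median rank of 676 (152 to 1650). Of 19 body and platform proteins, 13 had one in each case, with a median rank of 945 (66 to 3676). Strong starts in all 3 replicates numbered 11 for the head and 9 for the body and platform. Of the 12 members whose span holds small nucleolar RNA genes, 41 in all, 7 had an IDR summit within 500 bp of the start, and of the 26 others, 16. By chromosome arm, members with an IDR summit numbered 4 of 6 on 2L, 3 of 7 on 2R, 4 of 4 on 3L, 6 of 12 on 3R, 6 of 8 on X and 1 of 1 on chromosome 4.

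The start sequence was examined next. CTTT on the gene's strand, with its C within 10 bp of an annotated start, was found at 29 of 38 members (76.3%, interval 60.8 to 87.0), 87.0% of large-subunit genes, 7.69% of mitochondrial small-subunit genes and 14.9% of all genes. With the 5′ end of each gene as its only start, the count was 17 of 38 members. The share of all genes under that rule is not given here, so the 14.9% is no measure for that count. Counting all annotated starts, an IDR summit within 500 bp was found for 20 of the 29 members with CTTT (69.0%) and 3 of the 9 without (33.3%). Over all protein-coding genes these shares were 19.0% with CTTT and 9.12% without, but large-subunit genes ran the other way, at 30 of 47 with CTTT (63.8%) and 5 of 7 without (71.4%). RpS19b, RpS10a, RpS15Ab, RpS28-like and RpS28a were among those with neither CTTT nor such a summit, while RpS20, RpS12 and RpS2 had the summit without CTTT. RpS18, RpS24, RpS26, RpS29, RpS3, RpS5a, RpS5b and RpS6 had CTTT without the summit.

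Short words were looked for on either strand, up to 100 bp from each of the 29 distinct IDR summits of the members and from each summit of the whole IDR list. CAGCTG was found at 4 member summits (13.8%), those of RpS14b, RpS16, RpS21 and RpS27, against 15.1% of all, and the CAGCTG printed for RpS4 lies farther than 100 bp from its summits. Any E-box CANNTG, which includes CAGCTG and CACGTG, was found at 17 (58.6%), against 66.0%. The DRE TATCGATA was found at 5 (17.2%), those of RpS10b, RpS12, RpS14a, RpS25 and RpS7, against 1.59%. CACGTG was found at 3 (10.3%), those of RpS28b, RpS30 and RpS4, against 2.57%, and the Ohler1 word, known to be bound by M1BP, at 3, those of RpS15, RpS23 and RpS9, against 0.743%. GAGAG, the core bound by GAGA factor, was found at 2 (6.90%), against 28.0%, and TATAAA, the TATA box, at 3, against 29.4%. The median GC content of the same windows was 42.8% for the members and 37.8% for all, and its part in these shares was not tested. Most member summits lay near a start, whereas the whole IDR list was not limited to starts. The part of that difference in position was not tested either.

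In promoters, from 250 bases before to 50 after the 5′ end of each gene, the DRE was found in 13 of 38 members (34.2%). It was found in 27.8% of large-subunit genes and 9.36% of all genes. Other annotated starts were not used for these windows, so a window need not hold the start nearest the summit. An IDR summit within 500 bp was found for 9 of the 13 members with the DRE and for 14 of the 25 without. CAGCTG was found in 6 member promoters (15.8%), against 17.7% of all, and CANNTG in 26 (68.4%), against 77.2%. TATAAA was found in 20 (52.6%), against 45.8%, GAGAG in 4 (10.5%), against 29.7%, and the Ohler1 word in 3 (7.89%), against 4.50%. CACGTG was in none of the 38 promoters, against 4.20% of all. A match describes these letters in the window and does not show binding of the factor named.

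Cytosolic ribosomal protein genes of the large subunit gave shares close to those of the small subunit. Of 54 genes with a symbol beginning RpL, 35 (64.8%) had an IDR summit within 500 bp of an own TSS, and strong regions were found at 65.4% ± 5.66 of them per replicate (SD, n = 3), a range that holds the 63.2% of the small subunit. The median IDR rank was 566 for the large subunit and 931 for the small. Of 26 mitochondrial small-subunit genes, which encode the ribosome of the organelle, 3 (11.5%) had an IDR summit within 500 bp, near the share of all genes. The median rank of 3103 is that of the 4 genes with an IDR summit in the gene window. Strong regions were found at the starts of 11.5%, 7.69% and 19.2% of the 26 in replicates 1, 2 and 3. Each share lay below that of the cytosolic members in the same replicate.

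**Figure D4:**
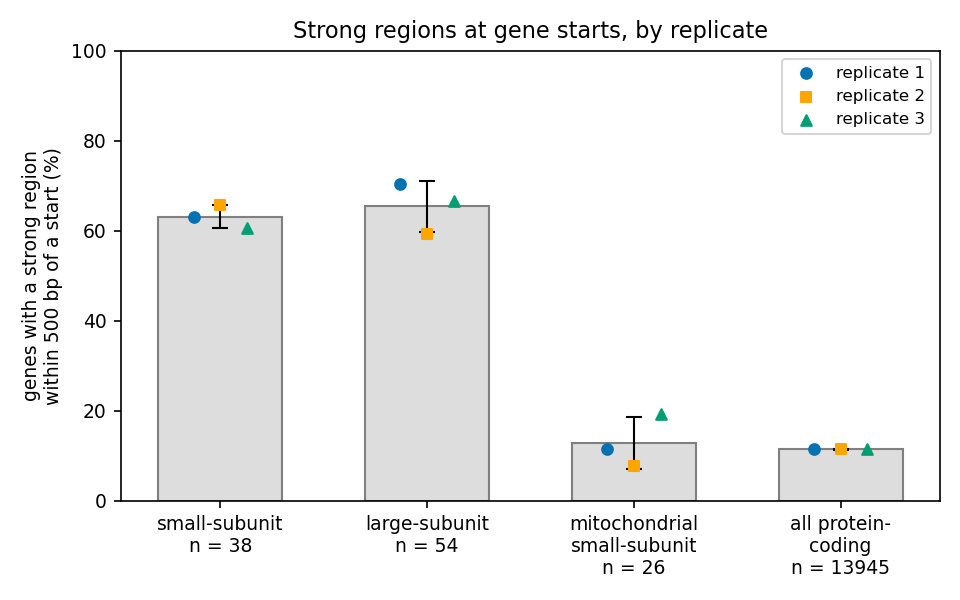
Percentage of genes with a strong region within 500 bp of a start in each replicate (points), with the mean as a bar from 0 and the SD over the 3 replicates as an error line, for small-subunit, large-subunit, mitochondrial small-subunit and all protein-coding genes. Small- and large-subunit genes reach 63.2% and 65.4% on average, against 11.4% of all genes.

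Other parts of the small subunit and its assembly factors were looked up by name. Rack1, a head protein outside the naming rule, had an IDR summit at rank 454, 27 bp downstream of its start, and ranked 449, 390 and 644 in replicates 1, 2 and 3, with CTTT at the start. sta, which encodes the platform protein RpSA, was listed at its start in replicate 2 alone, at 1769. Of 24 assembly factor names, 13 were matched to the annotation, by symbol or older symbol alone. Such a match does not show that the gene encodes the factor meant. Of these genes 1, dbe, had an IDR summit, at rank 1770 and 1048 bp upstream. None of the 13 had an IDR summit within 500 bp of a start, and 2 had CTTT there. Over all genes these shares were 10.6% and 14.9%, and counts this small are near them.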

How the data were processed

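Anti-GFP chromatin immunoprecipitation sequencing was done on nau-eGFP embryos in 3 biological replicates of 1 group, per the labels. The antibody label names nau and the description names anti-GFP, which was followed; the age label is not a plausible range, so the source name was used. The authors deposited narrowPeak lists made with a control file, per the deposited read-me files, with a signal value, a −log10 q-value and a summit offset per region. Which aligner and caller were run, and at which IDR threshold, is not given in the sources used here. Deposited q-values entered no result, and the lists on dm3 were not used.

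Signal values ranked regions within a list. Summits, as deposited, were placed on dm6 (1-based) against the annotation BDGP6.54 (Ensembl release 115), protein-coding genes on 6 arms only. Sequences came from the RefSeq genome of the same release, whose arm lengths contain all regions. The gene window was the body plus 2 kb upstream, and starts were those of all annotated transcripts. Promoter words were instead read at the 5′ end of each gene. Counts stand beside the same counts over all genes. Head, body and platform follow human and yeast structures. Of 26 names for other subunit parts and assembly factors, 15 were matched, 1 by an older symbol. The genes given with values in every replicate were the 12 members with the strongest and the 3 with the weakest IDR summit and all members of gene pairs; members without an IDR summit are given with their best ranks. The values of 3 members are not reported here one by one and enter the counts only. Members and lists were chosen with earlier results of these data known. Genes are not biological replicates. The assignment of summits and starts was tested on simulated data. Alternatives covered windows, lists, starts, word windows and leaving out each replicate. Scripts ran under Python 3.11.15 with pandas 2.3.3, numpy 2.4.6 and scipy 1.17.1, and matplotlib 3.10.9 drew the figures.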

Additional observations from a re-analysis of the deposited data

How the results depend on the processing

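Of 50 values under alternatives, 41 stayed within the limits set for a count or within the spread between replicates, and 9 moved; the cause was not tested. With strong regions limited to the strongest 1000 per replicate, 7 members in place of 22 were strong in all 3, and with 10000, 28. The shares of all genes at these limits are not given here, and the 13.3% given above is no measure for these counts. The median rank of 931 became 1168 in the own list of replicate 2 and 1189 in that of replicate 3. The median distance of the strongest summits in the gene window, -10 bp, became 5 bp with the 5′ end of the gene as the only start and 2 bp in the own lists of replicates 1 and 3. Member summits with CAGCTG numbered 8 within 250 bp in place of 4 within 100 bp, and 17 held any E-box (CANNTG). The initiator word CTTT was found at 17 members in place of 29 when the 5′ end of the gene was the only start. Members with an IDR summit, 24 of 38, stayed within the limits set at 16 of 38 with the gene body alone. The share of all genes under that rule is not given here. Without gene pairs, 17 of the 25 genes left had an IDR summit, which also stayed within the limits.

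Leaving out each replicate, by matching IDR summits to the strong regions of both others, gave 21 members with an IDR summit each time, 19 to 20 with one within 500 bp of a start, 22 to 24 strong in the replicates left, a median rank of 903, a median distance of -14 bp, 3 to 4 summits with CAGCTG and 3 nearer another gene. The IDR list, its summits and its ranks still came from all 3 replicates. These values therefore do not show what a list made without a replicate would hold. Counts of starts strong in any replicate and in all 3 were chosen after seeing the data. They gave 28 members (73.7%), against 16.6% of all genes, and 20 members (52.6%), against 6.83%. No paired analysis was possible because the series has 1 group. Depth is unknown, so a region missing from a list does not show that the protein was absent there.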

Other observations

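RpS5a, RpS18 and RpS29 are cases of strong regions in a replicate with no counterpart in the pooled list. Over the whole genome, 1904 places were strong in all 3 replicates, and 24 of them (1.26%), RpS5a included, had no region of the pooled list within 500 bp. Of the strong regions of replicates 1, 2 and 3, 176, 193 and 175 (4.67%, 5.12% and 4.65%) had no pooled region within 500 bp. RpS18 is absent from replicate 2 as are 108 (2.87%) of the strong regions of replicate 1 and 108 of replicate 3, counted within 500 bp.

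IDR regions at members were often shorter than the most common length. The median length was 314.5 bp for the strongest region of each of the 24 members and 460 bp for all IDR regions, of which 56.0% were 460 bp long, as were those of 6 members. The members' 460 bp regions had IDR ranks from 1164 to 3676, and the part of rank in the lengths was not tested. The median signal value was 361 for the strongest region of each member, against 244 for the IDR list. In the members' medians, 1 region counts for both RpS14a and RpS14b, whereas the medians of the IDR list cover every region, weaker second ones included.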
